A study of Mus musculus with 6 samples.

Results

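The interferon-stimulated genes described here are 40 genes chosen by name, whose products sense viral nucleic acid, block viral replication, relay the interferon signal or attract lymphocytes. Of the 40, 36 had a value, read from the probe set that named only that gene and had the highest mean over the arrays. Isg15, Ifi44, Ifi204 and Gbp2 had no such probe set and were not analysed here. All genes measured in this way numbered 19938. Of the 36 members, 34 reached the median of all values in the table (5.37 on the log2 scale, used here as a level filter) on at least 1 array, and were tested among 11516 genes. Mx2 and Cmpk2 lay below it on every array, so their values carry no test.

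The series holds 6 one-sample arrays, with a single array for every combination of treatment and time. Marrow cells of Spic(igfp/igfp) mice, the genotype of every group, were grown with 20 ng/ml GM-CSF, which drives marrow cells towards macrophages and dendritic cells. On culture day 6 they received heme at 80 µM (typed in the labels as µm) or vehicle, 0.15 M NaCl with 10% NH4OH, and RNA came from the cells still attached after 6, 24 or 72 h. The study concerns heme and the macrophages that recycle iron; the labels used here name neither the content of the igfp allele nor the number of mice or cultures. With 1 array per group a difference at 1 time has no replicate check and no test, and p-values over the 3 times measure only how much the heme effect varied between times. The adherent cells held macrophage transcripts, with the 7 measured macrophage markers at a mean level of 10.08 to 10.71. Some dendritic cell markers were as high. Itgax, H2-Aa and Cd74 were at 11.14, 12.22 and 12.54 with heme at 6 h, whereas Flt3, Zbtb46 and Xcr1 never reached the filter. Markers of T and NK cells (4.28 at most) and B cells (4.34 at most) had mean levels below the filter on every array.

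Type I interferons signal through the receptor chains IFNAR1 and IFNAR2 to a transcription factor complex that includes STAT2 and IRF9 and binds the interferon-stimulated response element (ISRE) in the promoters of its target genes. Interferon gamma acts through another element, the GAS element, and IRF1 links both branches. Macrophages keep many of these genes at a low resting level and raise them within hours of a viral, bacterial or inflammatory stimulus, often through interferon beta that they secrete themselves. Some members, among them Cxcl10, Irf1 and Irf7, also answer to other inflammatory signals, and Cxcl10 has known NF-kB sites.

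The promoters are shown because type I interferons act through the ISRE, though the members were chosen by name and not by this element. RefSeq promoter windows on GRCm38.p6, from 250 bases before to 50 after a transcript start, were found for 30 of the 40 members. The core of the ISRE, a pair of GAAA blocks with any 2 bases between them, was searched on both strands, with overlapping matches counted. It occurred in 15 of the 30 members (50%) and in 3.99% of the 27025 genes with a window. Below, capitals mark these matches. Cxcl10, the member furthest above vehicle at 6 h, has 1 match at -208 from the start (chr5:92348840-92349139, minus strand). Its window also holds 2 NF-kB consensus matches, at -154 and -98.
Cxcl10: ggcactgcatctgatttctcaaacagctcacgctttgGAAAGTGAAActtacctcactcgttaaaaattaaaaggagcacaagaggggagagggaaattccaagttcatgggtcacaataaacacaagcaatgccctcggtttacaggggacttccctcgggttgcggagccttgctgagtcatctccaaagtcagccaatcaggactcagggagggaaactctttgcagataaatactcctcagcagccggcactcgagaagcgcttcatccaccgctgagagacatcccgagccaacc
Ifit1 has 2 matches on the other strand, at -99 and -80 (chr19:34640639-34640938, plus strand).
Ifit1: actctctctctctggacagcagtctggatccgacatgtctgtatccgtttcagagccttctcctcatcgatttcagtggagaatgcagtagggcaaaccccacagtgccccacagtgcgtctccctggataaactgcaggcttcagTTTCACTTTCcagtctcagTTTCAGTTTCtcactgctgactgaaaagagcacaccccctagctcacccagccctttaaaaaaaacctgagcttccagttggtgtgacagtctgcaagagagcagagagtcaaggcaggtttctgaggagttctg
Ifi207, which differed in the opposite direction at the later times, has 1 match at -36 (chr1:173741760-173742059, minus strand).
Ifi207: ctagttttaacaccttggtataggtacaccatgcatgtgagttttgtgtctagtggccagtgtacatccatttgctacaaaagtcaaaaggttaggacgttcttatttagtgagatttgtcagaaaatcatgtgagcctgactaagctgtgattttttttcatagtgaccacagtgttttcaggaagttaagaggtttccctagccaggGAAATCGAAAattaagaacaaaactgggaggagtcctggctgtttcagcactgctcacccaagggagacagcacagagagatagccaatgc

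The matches of further members are given with 10 bases on each side, to show how alike the element is in genes whose responses differed. Ifit3, Rsad2 and Oas3 were above vehicle at 6 h, whereas Oas1a (0.21) and Gbp3 (0.15) differed less.
Ifit3 at -151: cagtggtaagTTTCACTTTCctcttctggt
Ifit3 at -117: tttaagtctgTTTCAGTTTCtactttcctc
Rsad2 at -115: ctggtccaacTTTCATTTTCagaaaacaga
Oas3 at -70: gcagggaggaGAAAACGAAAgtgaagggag
Oas1a at -15: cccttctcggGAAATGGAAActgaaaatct
Oas1a at -9: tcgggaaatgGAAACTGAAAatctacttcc
Gbp3 at -40: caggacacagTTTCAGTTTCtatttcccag
Gbp3 at -34: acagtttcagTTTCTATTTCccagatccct
The pairs in Oas1a and Gbp3 overlap, and each line has its own match in capitals. The 6 h differences of members with and without the match overlapped almost fully. The 13 measured members with a match had a median of 0.60 (0.06 to 2.67) and the 14 without one a median of 0.61 (-0.30 to 1.74), with 4 members at 2-fold or more in each. Oasl2, Cxcl9, Ifit2 and Irf7 were at 2-fold or more without a match, which says only that these letters are not in the window. GAS letters (TTCNNNGAA) were found in 7 of 30 members (23.3%, against 9.55% of genes) and the NF-kB consensus in 4 (13.3%, against 5.14%), namely Cxcl10, Bst2, Irf1 and Oasl1.

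After 6 h of heme, most members were above vehicle. Differences are heme minus vehicle on the log2 scale, so that 1 is 2-fold. The median member difference at 6, 24 and 72 h was 0.60, -0.17 and -0.21, beside -0.03, 0.02 and 0.01 over all genes measured. At 6 h 32 of the 36 measured members were above vehicle (46.1% of all genes were), and 9 were higher by 2-fold or more, against 0.597% of all genes. These 9 were Cxcl10, Ifit1, Cxcl9, Oasl2, Ifit3, Rsad2, Mx2, Ifit2 and Irf7. Lower by 2-fold were 0 members, against 0.426% of all genes. At 24 h 24 members were below vehicle (46.9% of all genes) and at 72 h 29 were (49% of all genes). No member was 2-fold higher at either time, where 0.833% and 0.752% of all genes were. In 27 of 36 members the difference was above 0 at 6 h and below 0 at 72 h, which held for 23.3% of all genes.

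Low levels limit the sizes of the differences at each time. Of the 36 members, 9 lay below the filter with vehicle at 6 h, and Ifit1, Ifit2, Cxcl9, Rsad2 and Oas3 were above it on the 6 h heme array alone. A difference against a level under the filter is therefore also given with that level raised to 5.37, and is then marked "at least". With all such levels raised, the median member difference was 0.49, -0.02 and -0.12 at 6, 24 and 72 h. The counts below vehicle at 24 and 72 h include members with both levels under the filter, as for Ifit1, Ifit2 and Mx2. Among the 27 members above the filter on both 6 h arrays, Cxcl10, Oasl2 and Ifit3 were 2-fold higher (0.871% of 10224 such genes were), and the median difference was 0.41, against -0.12 for those genes. Of the 6 arrays the one for heme at 6 h had the highest median (5.45, against 5.34 to 5.39), and genes that never reached the filter had a median difference of 0.05 at 6 h.

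**Figure D1:**
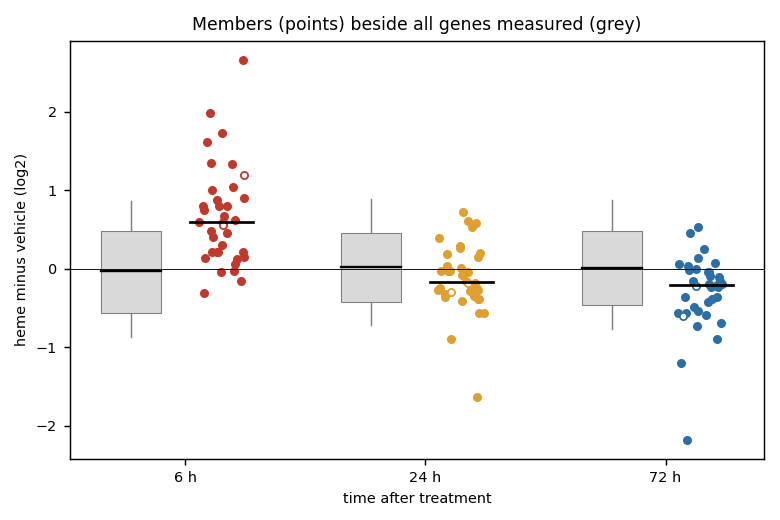
Heme minus vehicle differences (log2) at 6, 24 and 72 h. Points are the 36 measured members (open where below the level filter on all arrays) with their median as a line; grey boxes span the 5th to 95th percentile of all 19938 genes, whiskers the 1st to 99th, and the line their median. Most members lie above 0 at 6 h (median 0.60) and below 0 at 72 h (median -0.21).

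Among the secreted members, Cxcl9 and Cxcl10 encode ligands of the chemokine receptor CXCR3. Cxcl10 was at 8.08, 5.65 and 5.02 with heme at 6, 24 and 72 h and at 5.41, 4.92 and 4.87 with vehicle. It was 6.34-fold higher at 6 h, and by 24 h the difference was 0.73 (at least 0.28). Cxcl9 was at 6.11, 4.99 and 4.38 with heme and at 4.37, 4.61 and 5.07 with vehicle. Its 6 h difference of 1.74 (at least 0.73) rests on 1 array above the filter. Lgals3bp, a secreted glycoprotein, was below vehicle at 6 h (-0.30), above it at 24 h (0.29) and below it at 72 h (-0.58).

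Among the antiviral effectors, the IFIT proteins bind foreign RNA. Ifit1 was at 6.48, 4.68 and 3.88 with heme and at 4.50, 4.71 and 4.45 with vehicle, a 6 h difference of 1.98 (at least 1.11). Ifit3 was at 7.04, 5.69 and 5.73 with heme and at 5.69, 6.24 and 6.28 with vehicle. All 6 of its levels were above the filter, and the difference went from 1.35 at 6 h to -0.56 at both later times. Ifit2 was at 5.96, 4.69 and 4.16 with heme and at 4.91, 5.06 and 4.88 with vehicle, a 6 h difference of 1.04 (at least 0.58). The 3 genes lie near each other on chromosome 19 and their products are related, but each had its own probe set.

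Rsad2, which encodes viperin, an enzyme that makes a chain-terminating nucleotide, was at 6.59, 5.06 and 5.08 with heme and at 5.26, 5.33 and 5.13 with vehicle. It was higher by 1.33 at 6 h (at least 1.21). Mx1, an antiviral GTPase, was at 5.87, 5.25 and 5.38 with heme and at 4.97, 4.98 and 4.85 with vehicle, and was above vehicle at each time (0.90, 0.26 and 0.54). With levels under the filter raised to it, the difference was at least 0.50 at 6 h and 0.0081 at 72 h, and both 24 h levels lay under it. Its relative Mx2 was at 5.09, 3.80 and 4.05 with heme and at 3.90, 4.09 and 4.65 with vehicle, all below the filter. Mx2 differed by 1.19 at 6 h and Cmpk2, a nucleotide kinase, by 0.56, also below the filter on every array. The tetherin gene Bst2 differed by 0.48 and 0.53 at 6 and 24 h and by -0.38 at 72 h. Trim30a (0.13 at 6 h), the exonuclease Isg20 (-0.04) and the guanylate-binding GTPase Gbp3 (0.15) were close to vehicle early, and Gbp3 later stood below vehicle, by 0.89 (24 h) and 0.54 (72 h). Over the 11 measured effectors the median difference was 0.90, -0.27 and -0.38 at 6, 24 and 72 h. With levels under the filter raised to it, these medians were 0.48, 0 and 0.

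**Figure D2:**
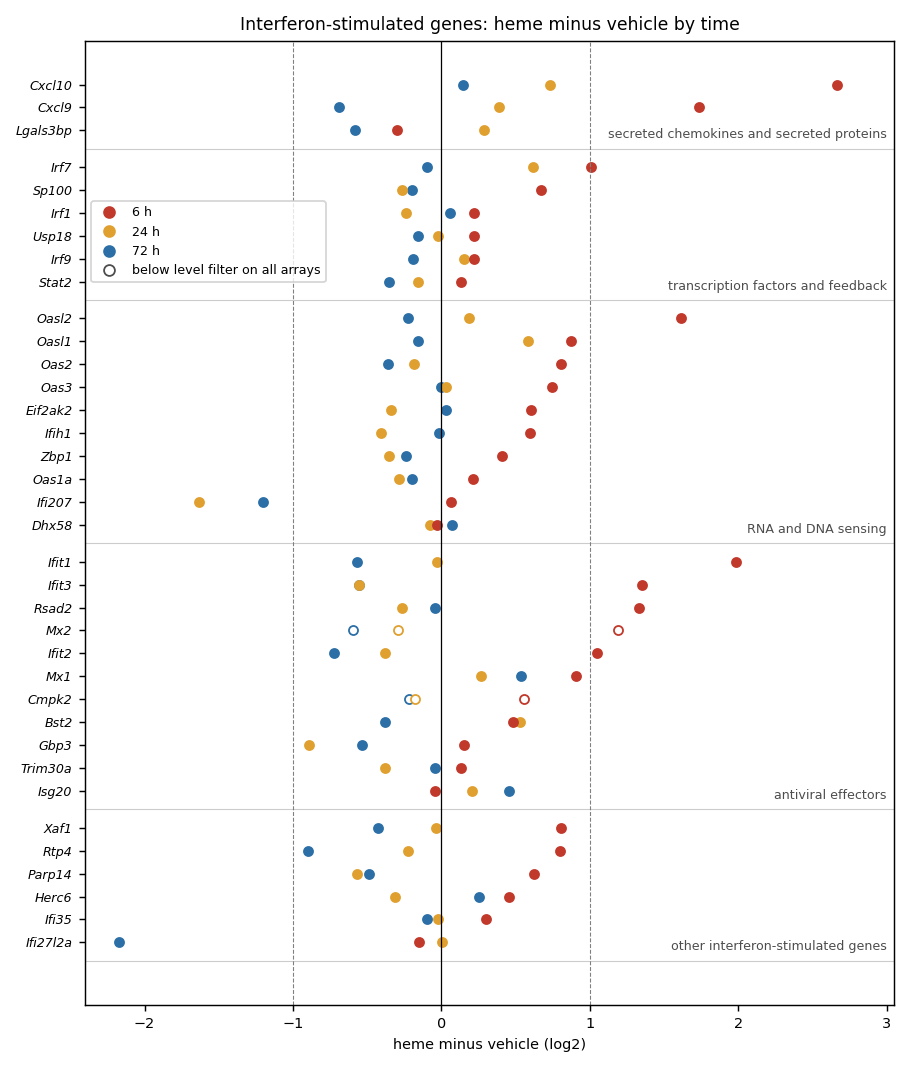
Heme minus vehicle difference (log2, horizontal axis) of each measured member at 6, 24 and 72 h, ordered by role and by the 6 h difference; dashed lines mark 2-fold and open points a member below the level filter on all arrays. The 6 h points of Cxcl10 (2.67), Ifit1 (1.98) and Cxcl9 (1.74) lie furthest to the right, and the 72 h point of Ifi27l2a (-2.17) furthest to the left.

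Genes of nucleic acid sensing were mixed. Enzymes of the OAS family make 2-5A, the messenger that activates RNase L, though not every protein of the family does so. Oasl2 was at 7.30, 5.74 and 5.67 with heme and at 5.68, 5.56 and 5.90 with vehicle, all above the filter, so that its 6 h level stood 3.06-fold over vehicle and the other 5 levels lay between 5.56 and 5.90. Oasl1 was at 6.33, 5.88 and 5.36 with heme and at 5.46, 5.30 and 5.52 with vehicle. Oas2 was at 6.31, 5.59 and 5.41 with heme and at 5.50, 5.77 and 5.78 with vehicle. Both were less than 2-fold above vehicle at 6 h, by 0.87 and 0.80. Oas3 was at 5.95, 5.26 and 5.19 with heme and between 5.20 and 5.23 with vehicle, a 6 h difference of 0.75 (at least 0.58). Oas1a differed by 0.21. The RNA sensor Ifih1 (MDA5) and the kinase Eif2ak2 (PKR) were higher by 0.60 each at 6 h and the nucleic acid sensor Zbp1 by 0.41, and all 3 were below vehicle at 24 h. Dhx58 (LGP2) differed by at most 0.08 in either direction at each time.

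Of the transcription factors and feedback genes, Irf7, the factor that amplifies interferon production, was at 6.29, 5.79 and 5.52 with heme and at 5.28, 5.17 and 5.62 with vehicle. It was 2.01-fold higher at 6 h (a log2 difference of at least 0.91) and higher by 0.62 at 24 h (at least 0.41). The nuclear body gene Sp100 was at 9.10, 8.12 and 8.09 with heme and at 8.43, 8.39 and 8.29 with vehicle, and was higher by 0.67 at 6 h and lower by 0.27 at 24 h. Stat2, Irf9, Irf1 and Usp18, which encodes an enzyme that removes ISG15 and restrains the receptor, differed by 0.13 to 0.22 at 6 h. For Irf1 the second probe set differed by 0.43 at 6 h against 0.22 on the one used, and the pair went opposite ways at 24 and 72 h (-0.24 and 0.06 on the one used, 0.03 and -0.14 on the second). Over the 6 measured genes of this role the median was 0.22 at 6 h.

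Of the remaining members, Xaf1, a pro-apoptotic factor, was at 7.28, 6.58 and 6.19 with heme and at 6.48, 6.61 and 6.61 with vehicle. Rtp4 was at 7.29, 5.99 and 5.39 with heme and at 6.49, 6.21 and 6.29 with vehicle. Both were higher by 0.80 at 6 h and lower at 72 h, Xaf1 by 0.43 and Rtp4 by 0.90. Parp14, an ADP-ribosyltransferase, was higher by 0.62 at 6 h and lower by 0.57 and 0.49 later. Herc6, a ubiquitin-family ligase, and Ifi35 were higher by 0.45 and 0.30 at 6 h.

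A pair of members followed other courses, and their values are given because of them. Ifi207, of the PYHIN family of DNA-binding proteins, was at 7.80, 6.68 and 7.27 with heme and at 7.74, 8.31 and 8.47 with vehicle. It differed by 0.06 at 6 h and was 3.10-fold lower at 24 h and 2.30-fold lower at 72 h. Similarly named genes outside the members were also below vehicle later, Ifi203 by -0.88 and -0.42 and Ifi209 by -0.87 and -0.60 at 24 and 72 h. Ifi202b was below it at 24 h (-0.33) and above it at 72 h (0.40). Ifi27l2a, which encodes a mitochondrial membrane protein, was at 10.83, 10.71 and 7.83 with heme and at 10.98, 10.71 and 10.00 with vehicle. Its levels were alike until 24 h, and at 72 h it was 4.51-fold lower with heme. These were the members at 2-fold or more below vehicle, 1 at 24 h (0.296% of all genes) and 2 at 72 h (0.421%). Ifi207, Oas1a, Trim30a and Gbp3 have close relatives in the genome, and whether their probe sets read those too was not tested.

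**Figure D3:**
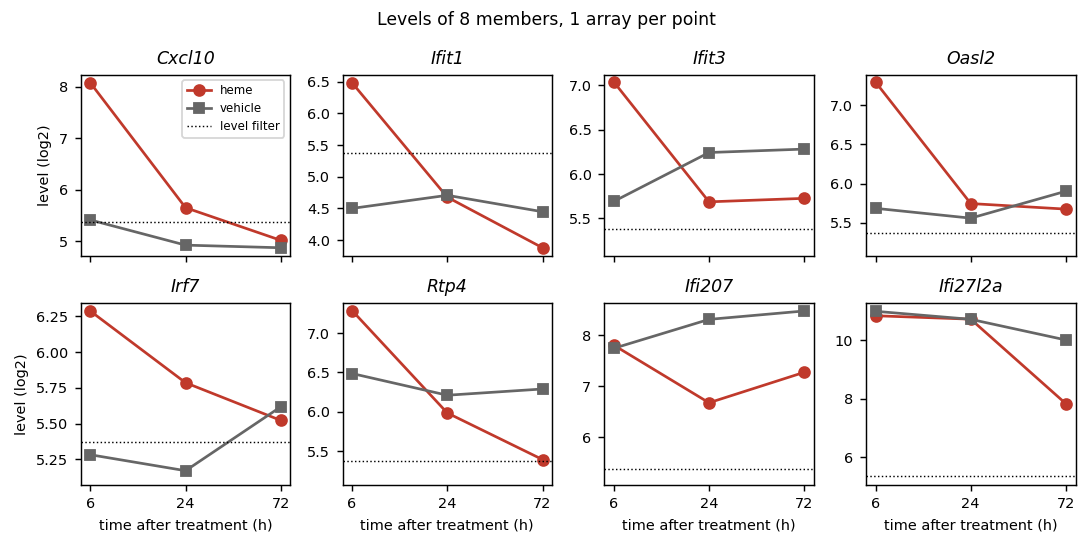
Level (log2, 1 array per point) of 8 members against time after treatment (evenly spaced), with heme in red circles and vehicle in grey squares; the dotted line is the level filter of 5.37 and vertical scales differ. In Cxcl10, Ifit1, Ifit3, Oasl2, Irf7 and Rtp4 the heme and vehicle levels are furthest apart at 6 h or, in Rtp4, at 72 h, whereas Ifi207 separates at 24 h and Ifi27l2a at 72 h.

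Over time, member levels changed more between the heme arrays than between the vehicle arrays. With vehicle the median member change was 0.07 from 6 to 24 h and -0.08 from 24 to 72 h, and 0 of 36 members moved by 2-fold between 6 and 72 h, where 1.72% of all genes were 2-fold lower and 0.893% higher. With heme the median change was -0.69 from 6 to 24 h and -0.18 from 24 to 72 h. From 6 to 24 h 10 of 36 were lower by 2-fold or more (0.737% of all genes) and from 6 to 72 h 13 were (1.64%). The 6 h heme array was the highest of the 6 for 28 of 36 members (17.4% of all genes), and the 72 h heme array the lowest for 16 (17.3%). These counts share the heme arrays with the differences above and are no separate evidence for them.

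Over the 3 times together, 0 of the 34 tested members rose or fell at an adjusted p of 0.05 (limma with time as a term, Benjamini-Hochberg over 11516 genes), where 1.13% of genes rose and 0.59% fell. An unadjusted p below 0.05 was reached by 4 members (limma), against 10.6% of genes. The mean difference of Cxcl10 was 1.18 ± 1.32 (SD, n = 3 times; limma, adjusted p = 0.234), and that of Mx1, with less spread, was 0.57 ± 0.32 (limma, adjusted p = 0.15). Without the 72 h pair Cxcl10 passed (limma, adjusted p = 0.0479), as 1 of 201 genes that did in either direction. Without the 6 h pair Ifi207, Ifi27l2a and Gbp3 fell, by 1.42, 1.08 and 0.72 (limma, adjusted p = 7.3e-08, 0.0017 and 0.00875). In that fit 521 of 11516 genes passed in either direction. It leans on a spread shared over genes, with a prior of 46.9 degrees of freedom, so small p-values there say little about these genes alone. The fall of Ifi27l2a came from 72 h (-2.17), since its 24 h difference was 0.0051.

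The difference between early and later heme effects was then tested, as the effect at 6 h minus the mean effect at 24 and 72 h. This split was chosen knowing that the members stood higher at 6 h, so the test measures how far they stood apart and is no independent support. In 9 of the 34 tested members the 6 h effect was above the later one at an adjusted p of 0.05 (limma, Benjamini-Hochberg over 11516 genes), and in 0 below it, against 0.486% and 0.53% of genes. At an unadjusted p below 0.05 there were 21 members, against 10.3% of genes (limma). The sizes were 2.28 ± 0.32 (SE) for Ifit1, 2.23 ± 0.32 for Cxcl10, 1.91 ± 0.31 for Ifit3, 1.89 ± 0.34 for Cxcl9 and 1.63 ± 0.31 for Oasl2 (limma, adjusted p = 5.4e-06, 9.5e-06, 1.1e-04, 4.9e-04 and 0.00121). Ifit2 (1.59 ± 0.31), Rsad2 (1.49 ± 0.31), Ifi207 (1.48 ± 0.31) and Rtp4 (1.36 ± 0.32) followed (limma, adjusted p = 0.0016, 0.00413, 0.00485 and 0.0147). For Ifi207 the gap came from the later times, since its 6 h difference was 0.06. Of the 9, Ifit1, Cxcl9, Ifit2 and Rsad2 entered the test through the 6 h heme array alone, so their count supports nothing by itself.

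This test has 1 residual degree of freedom and leans on a spread shared over genes, with a prior of 46.9 degrees of freedom. After a second quantile normalization or cyclic loess that prior was 9.43 or 8.84 and 3 members passed, Ifit1, Cxcl10 and Ifit3 (limma, adjusted p = 0.0289 to 0.0465). There 19 and 15 genes in all passed in either direction, against 117 in the fit reported. With levels under the filter set to it, 0 members and 0 of all genes passed.

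**Figure D4:**
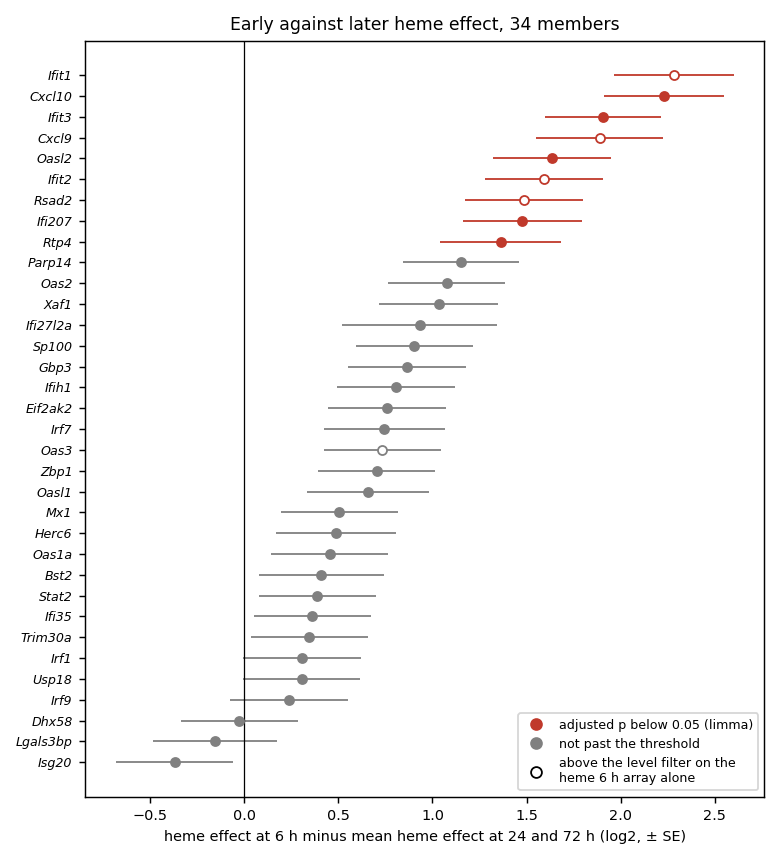
Heme effect at 6 h minus the mean heme effect at 24 and 72 h (log2, bars are ± 1 SE from limma) for the 34 tested members; red marks an adjusted p below 0.05 and open points a member above the level filter on the 6 h heme array alone. The 9 red points run from Rtp4 (1.36) to Ifit1 (2.28), and 4 of them are open. The bars hold no variation between 6 h arrays.

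Among upstream genes of the pathway, the interferon beta gene Ifnb1 lay between 3.41 and 3.69 on all 6 arrays, below the filter, and differed by 0.02 at 6 h. Of 21 interferon genes, 16 were measured and 8 tested, and 0 passed either test (limma), with 0 and 2 at an unadjusted p below 0.05 over the 3 times and early against later. Among the 8 tested, the largest 6 h differences were those of Ifnk (0.82, at least 0.55), Ifna14 (0.64), Ifne (0.53, at least 0.058), Ifna9 (-0.49) and Ifnz (0.32). The receptor chains Ifnar1 and Ifnar2 differed by 0.29 and -0.05 at 6 h and passed neither test. Of 16 tested receptor and JAK-STAT genes 1 rose, the feedback inhibitor Socs3, with differences of 1.01, 0.55 and 0.65 (limma, adjusted p = 0.0444), and the median of those measured was 0.04 at 6 h. The kinase Jak2 (0.51), Ifngr1 (-0.50) and Pias1 (-0.29) did not pass. Among 26 tested sensors, adaptors, kinases and IRFs that induce interferon 1 rose, the lipopolysaccharide co-receptor Cd14 (0.93, 1.40 and 0.95; limma, adjusted p = 0.00825), and the median was 0.02. The kinase Ikbke differed by 0.93, 0.84 and 0.40, while the adaptor Mavs (-0.89), Irf8 (-0.79) and the RNA sensor Tlr7 (-0.66) were below vehicle at 6 h. These 4 did not pass.

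Other targets of the pathway had smaller medians than the members. Of 59 further interferon-stimulated genes measured, 37 were above vehicle at 6 h, 0 by 2-fold, with a median of 0.10. Their 6 h effect was above the later one in 4 of 52 tested, namely Slfn5 (1.45), Phf11d (1.32, with its 6 h vehicle level under the filter), Slfn1 (1.24) and Rnf213 (1.20; limma, adjusted p = 0.00571, 0.0163, 0.029 and 0.0361), and in 0 below. Rnf213 stood furthest above vehicle at 6 h, by 0.99, and Ifitm1 differed by -0.57. Among 25 interferon gamma targets measured, GTPases and antigen processing genes, the median was 0.18 at 6 h. Of these the GTPase Gbp5, at 7.24 with heme and 5.61 with vehicle at 6 h, passed the early test (1.80; limma, adjusted p = 2.5e-04), 1 of 21 tested. Icam1 differed by 1.25 at 6 h and Ciita, the regulator of MHC class II, by 0.69, while Gbp9 (-0.68) was below vehicle and Nlrc5 (0.57) above. None of these 4 passed. Of the 25, 3 were lower by 2-fold or more at 24 h (0.296% of all genes), 2 of them tested, and 0 were higher by 2-fold.

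Most NF-kB inflammatory genes were above vehicle at each time. Their median difference over 24 genes was 1.66, 1.24 and 0.60 at 6, 24 and 72 h. Below vehicle were 1, 3 and 5 of the 24, with 1 lower by 2-fold or more at 72 h. Over the 3 times 14 rose, against 1.13% of all tested genes (limma). The neutrophil chemokine Cxcl3 differed by 3.84, 4.28 and 3.35 at 6, 24 and 72 h, and its early effect was 0.03 above the later one (limma, adjusted p = 0.992). Il1b (3.33 at 6 h), Cxcl2 (3.25) and Saa3 (2.78) rose as well (limma, adjusted p = 0.00598, 8.9e-05 and 5.6e-04). An early effect above the later one was found in 3 of the 24, against 0.486% of all tested genes. These were Il1a (2.08), Tnf (1.83) and Ccl4 (1.67; limma, adjusted p = 9.0e-05, 2.5e-04 and 9.0e-04). This list, like the others, was chosen with earlier results of these data known, so its counts describe it and are no independent support. Whether the lists differ in course as lists was not tested.

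**Figure D5:**
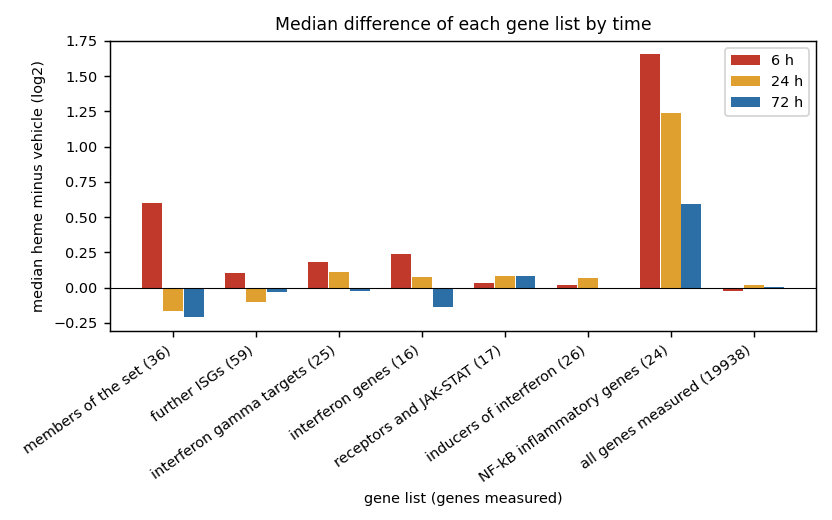
Median heme minus vehicle difference (log2) of the members and of 6 other gene lists at 6, 24 and 72 h, beside all genes measured; the number of genes measured is in brackets and bars start at 0. The members have medians of 0.60, -0.17 and -0.21, and the median of the NF-kB inflammatory genes stays above 0 at each time (1.66, 1.24 and 0.60).

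Markers of other cells that such cultures can hold were compared over the same arrays. Plasmacytoid dendritic cells, a main source of type I interferon, had 7 of 8 markers measured, with a mean level between 5.62 and 5.80 on all arrays and 5.68 with heme and 5.62 with vehicle at 6 h. Siglech, their defining receptor, was at 5.41 with heme and 5.46 with vehicle at 6 h. Neutrophil markers, 8 of 8 measured, had mean levels of 7.58, 6.91 and 5.56 with heme and 7.40, 5.87 and 5.56 with vehicle at 6, 24 and 72 h. At 24 h all 8 were above vehicle (median 0.79), and 3 by 2-fold or more (0.833% of all genes), namely S100a8 (1.97), Camp (1.94) and Ngp (1.84). At 72 h 4 were above vehicle and 4 below. Over the 3 times 0 of the 7 tested rose or fell (limma). The dendritic cell chemokine receptor Ccr7 and the monocyte gene Vcan rose, with differences of 0.86 and 2.35 at 6 h (limma, adjusted p = 0.0279 and 0.0118). The early effect of Vcan was above the later one by 1.19 (limma, adjusted p = 0.0405). The other measured monocyte markers, Ccr2 (-0.20) and F13a1 (-0.21), were below vehicle at 6 h, as was the dendritic marker Dpp4 (-0.38), and these 3 did not pass. Of the 8 conventional dendritic cell markers, 6 were above vehicle at 6 h and 2 below (median 0.25). All 5 measured stromal markers were below vehicle at 6 h (median -0.22, Dcn at -0.93) and above it at 72 h (median 0.19), and 0 of the 4 tested passed either test (limma), with 0 and 2 at an unadjusted p below 0.05 over the 3 times and early against later. Of the 7 macrophage markers 5 were below vehicle at 6 h (median -0.21) and 3 at 72 h (median 0.10). The part of any of these in the members' values was not tested. In a bulk sample fewer cells of a type and less RNA per cell cannot be told apart.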

How the data were processed

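The authors deposited log2 expression values for 35556 probe sets on 6 arrays, produced with RMA and quantile normalization (ArrayStar software), per the series' design text and the submitters' processing notes. The labels name no versions; that the scale is log2 was read from the range of the values. RMA compresses differences of dim probe sets. In the platform annotation 21789 probe sets named 1 gene, 1621 several and 12146 were not listed; the first kind gave 19938 genes, with symbols updated through RefSeq gene identifiers. Genes were kept where the highest of 6 arrays reached the median of all values.

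Tests used limma 3.58.1 in R 4.3.3 (lmFit, eBayes, two-sided, Benjamini-Hochberg over 11516 genes), with time as a term over the 3 times (2 residual degrees of freedom, prior 7.17), and with a further heme by 6 h term for the early contrast. Both were tested on simulated data. Members and lists were chosen with earlier results of these data known. Named were all members, with every array's value for the 14 tested members of largest 6 h difference and for at least 2 per role, and of each other list up to 5 genes by 6 h difference or any past a test. Promoter windows came from RefSeq. Alternatives covered normalization, level filter, probe sets, thresholds, the variance model and leaving out each time. The number of arrays limits the precision.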

Additional observations from a re-analysis of the deposited data

Results flagged for a closer look

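The effect of heme differed between 6 h and the later times in 9 members, by the interaction term of limma, against 0.486% of all tested genes above and 0.53% below: Ifit1 (2.28), Cxcl10 (2.23), Ifit3 (1.91), Cxcl9 (1.89), Oasl2 (1.63), Ifit2 (1.59), Rsad2 (1.49), Ifi207 (1.48) and Rtp4 (1.36), each the log2 effect at 6 h minus the mean effect at 24 and 72 h. The split at 6 h was chosen knowing that the members stood higher then, so these values are a description and no independent support. Ifit1, Cxcl9, Ifit2 and Rsad2 passed the level filter through the 6 h heme array alone. Ifit1, Cxcl10 and Ifit3 were the 3 that also passed after a second quantile normalization or cyclic loess. With levels under the filter set to it, 0 members and 0 of all genes passed (limma). No group held enough arrays to look for a single array apart from its group.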

How the results depend on the processing

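The median member difference at 6 h was 0.60 and stayed above 0 in every alternative run, at 0.48 with median-centred arrays and 0.35 with a level filter at the 75th percentile, where 20 members were left and the 24 h median was -0.23. Median-centring, which moved the 6 h median of all tested genes from -0.10 to -0.22, gave a median member change of -0.55 from 6 to 24 h with heme. Of the tested members, 8 were 2-fold higher at 6 h, as were 111 of all 11516 tested genes. The count of members was 2 with the stricter filter and 5 with levels under the filter set to it (chosen after seeing the data). It was 18 at a threshold of 1.5-fold and 1 at 4-fold. Of the 8, Ifit1, Ifit2, Cxcl9 and Rsad2 passed the level filter through the 6 h heme array alone. At 24 h the 1.5-fold threshold gave 2 higher and 2 lower, and 4-fold gave 0 lower. At 72 h they gave 5 and 1 lower. Shares of all genes at these other settings were not computed, so the counts there have no background beside them. Over the 3 times, 1 member fell with median-centred arrays, 3 fell without the 6 h pair and 1 rose without the 72 h pair, where 279, 521 and 201 genes in all passed in either direction, against 198 in the fit reported (limma). The 9 members with a larger early effect became 3 after a second quantile normalization, 3 after cyclic loess and 4 with the stricter filter (limma). In those fits 19, 15 and 95 genes in all passed in either direction, against 117 in the fit reported. With levels under the filter set to it the spread of many genes was 0, and 0 members and 0 of all genes passed (limma). No member that was called in either setting changed direction. The early contrast could not be fitted without a time, since no residual degrees of freedom remain. Time, a term in both fits, pairs heme with vehicle; without it 0 members and 18 genes in all passed over the 3 times (limma).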
